A study of Arabidopsis thaliana with 90 samples.

Results

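The libraries described here are 6 of the 90 RNA-seq libraries of the series, 3 from PHYB-CFP/abcde seedlings irradiated with red light (R) for 1 h at 27 °C and 3 from the same line kept in darkness at 27 °C. They were chosen by the line, the temperature and the light given in their labels and not by any measured value. PHYB-CFP/abcde is an Arabidopsis thaliana line of the Landsberg erecta ecotype with mutations in all phytochrome genes, PHYA to PHYE, and with a PHYB-CFP fusion driven by the PHYB promoter, so phyB-CFP is its sole functional phytochrome. Both groups carry the mutations and the transgene, and a single transgenic line was sequenced. The seedlings were 4 days old, were grown on MS plates in darkness and were harvested whole, either after 1 h R at 50 µmol m−2 s−1 or without irradiation, and polyadenylated RNA was sequenced. Further groups of 3 libraries each served for comparison: the same line after 24 h R at 27 °C, the same line at 17 °C, aBcde (native phyB as the only functional phytochrome), PHYD-YFP/abcde (PHYD-YFP under the 35S promoter in the same mutant, without PHYB-CFP) and PHYB-CFP, PHYD-YFP/abcde (both transgenes). Levels of PHYB and PHYD are also shown for PHYD-YFP/abCde (PHYD-YFP under the 35S promoter, with native phyC functional). Nothing in the labels says whether replicates are separate cultures, so the p-values measure the spread between libraries only. That spread was estimated with all 90 libraries of the series and not with the 6 alone.

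Phytochromes are photoreceptors that R converts into the active Pfr form, which enters the nucleus. There phyB binds PHYTOCHROME-INTERACTING FACTORs (PIFs), bHLH transcription factors that keep etiolated seedlings growing in darkness, and causes their inactivation and degradation. It also lowers the activity of the COP1/SPA ubiquitin ligase, which in darkness removes HY5 and other promoters of photomorphogenesis. PIFs bind the G-box (CACGTG) and the PBE (CACATG or its reverse complement CATGTG) in front of their target genes.

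Some of the genes that the results turn on hold G-boxes close to their starts, and only such genes are shown. The stretches below, from the RefSeq annotation and genome of build TAIR10.1 (Columbia ecotype, whereas the seedlings are Landsberg erecta), show the receptor gene itself, clock genes that rose (CCA1, LHY, PRR9, LNK3 and RVE1), another gene that rose (NUDX19) and a gene that fell (AT5G05965). Each holds every G-box within 250 bases before the annotated start with up to 20 bases on either side, and the capitals mark CACGTG.
PHYB (chr2:8139590-8139670, + strand): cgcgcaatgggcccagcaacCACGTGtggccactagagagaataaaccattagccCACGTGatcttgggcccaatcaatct
CCA1 (chr2:19245378-19245423, + strand): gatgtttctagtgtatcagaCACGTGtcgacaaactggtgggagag
LHY (chr1:37926-37971, − strand): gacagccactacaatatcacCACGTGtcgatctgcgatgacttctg
PRR9 (chr2:19232357-19232460, + strand): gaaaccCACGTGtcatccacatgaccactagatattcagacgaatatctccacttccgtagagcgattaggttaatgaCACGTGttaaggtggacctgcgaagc
LNK3 (chr3:3923324-3923399, + strand): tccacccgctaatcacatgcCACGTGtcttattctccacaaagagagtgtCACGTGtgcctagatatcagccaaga
RVE1 (chr5:5693078-5693123, − strand): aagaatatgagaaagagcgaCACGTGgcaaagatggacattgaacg
NUDX19 (chr5:6779762-6779830, + strand): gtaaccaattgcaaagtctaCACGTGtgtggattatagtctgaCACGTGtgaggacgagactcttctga
AT5G05965 (chr5:1792676-1792772, − strand): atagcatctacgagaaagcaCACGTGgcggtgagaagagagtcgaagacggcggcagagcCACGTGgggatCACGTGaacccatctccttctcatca

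Over all tested genes, the 250 bases before the start held CACGTG on either strand in 1536 of 20662 windows (7.43%) and a PBE in 2327 (11.3%). Among the genes that rose after 1 h R, 43 of 323 windows (13.3%) held a G-box and 54 (16.7%) a PBE, and among those that fell, 30 of 165 (18.2%) held a G-box and 27 (16.4%) a PBE. Of the 12 genes in each direction named below for the smallest p, 3 that rose and 2 that fell held a G-box there. These shares describe letters in the reference and were not tested.

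The 6 libraries held 20142194 to 41124234 counted reads. Levels are given as CPM, the reads of a gene relative to the reads of all tested genes in its library, scaled with the TMM method, always for replicates 1, 2 and 3 in this order. Log2 fold changes are 1 h R over dark with a standard error (SE) calculated back from the test, and genes past an adjusted p of 0.05 (edgeR quasi-likelihood test, Benjamini-Hochberg over 20695 genes) that changed 2-fold or more are termed differentially expressed genes (DEGs). Replicate 3 of the 1 h R group stood apart: its root mean square log2 distance was 0.652 to replicate 1 and 0.629 to replicate 2, against 0.457 between these and 0.543 to 0.553 between dark replicates, and its reads from organelle genes made up 1.00% against 2.66% and 3.08% in the other irradiated libraries and 3.01 to 4.1% in dark ones. Replicate 3 was also low in this share after 1 h R in aBcde at 27 °C (0.853, 0.799 and 0.239%). So it was in the same line at 17 °C (1.76, 2.43 and 0.58%). After 1 h R at 27 °C the shares were 1.79, 3.96 and 1.75% in PHYD-YFP/abcde and 3.16, 2.5 and 2.66% in PHYB-CFP, PHYD-YFP/abcde. The effect on the comparisons was not tested. Summed levels of cotyledon markers (3 of 3 tested) ran from 794.8 to 1856 CPM in 1 h R libraries, lowest in replicate 3, and from 1024 to 1323 CPM in dark libraries, and those of residual seed markers (4 of 4 tested) from 55.65 to 373.6 CPM, against 87.12 to 902.1 CPM. Root markers (5 of 5 tested) summed to 48.16 to 51.66 CPM, against 37.08 to 52.72 CPM, with COBL9 and NRT2.1 at 0 in all 6 libraries and EXPA7 at 0 after 1 h R only, and vasculature and meristem markers (3 of 3 tested) to 80.98 to 92.66 CPM, against 86.97 to 95.66 CPM. In whole seedlings, fewer cells of a type and less RNA per cell cannot be told apart.

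After 1 h R, 488 of 20695 tested genes were DEGs (2.36%), 323 up (1.56%) and 165 down (0.797%). Genes that rose included SPA, B-box and clock genes, and those that fell included PHYB itself, PIF6, atypical bHLH and HD-ZIP II genes. The genes that fell stood at a median of 28.5 CPM in darkness and those that rose at 5.37 CPM, and 34 genes fell and 72 rose at least 4-fold. For 463 of the DEGs (94.9%), and for 5344 of all tested genes (25.8%), the irradiated and the dark libraries did not overlap. Over all tested genes the median log2 fold change was 0.01. Without 1 h R replicate 3, 354 of the 488 genes were still DEGs in the same direction, 134 were not and 57 others became DEGs.

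**Figure D1:**
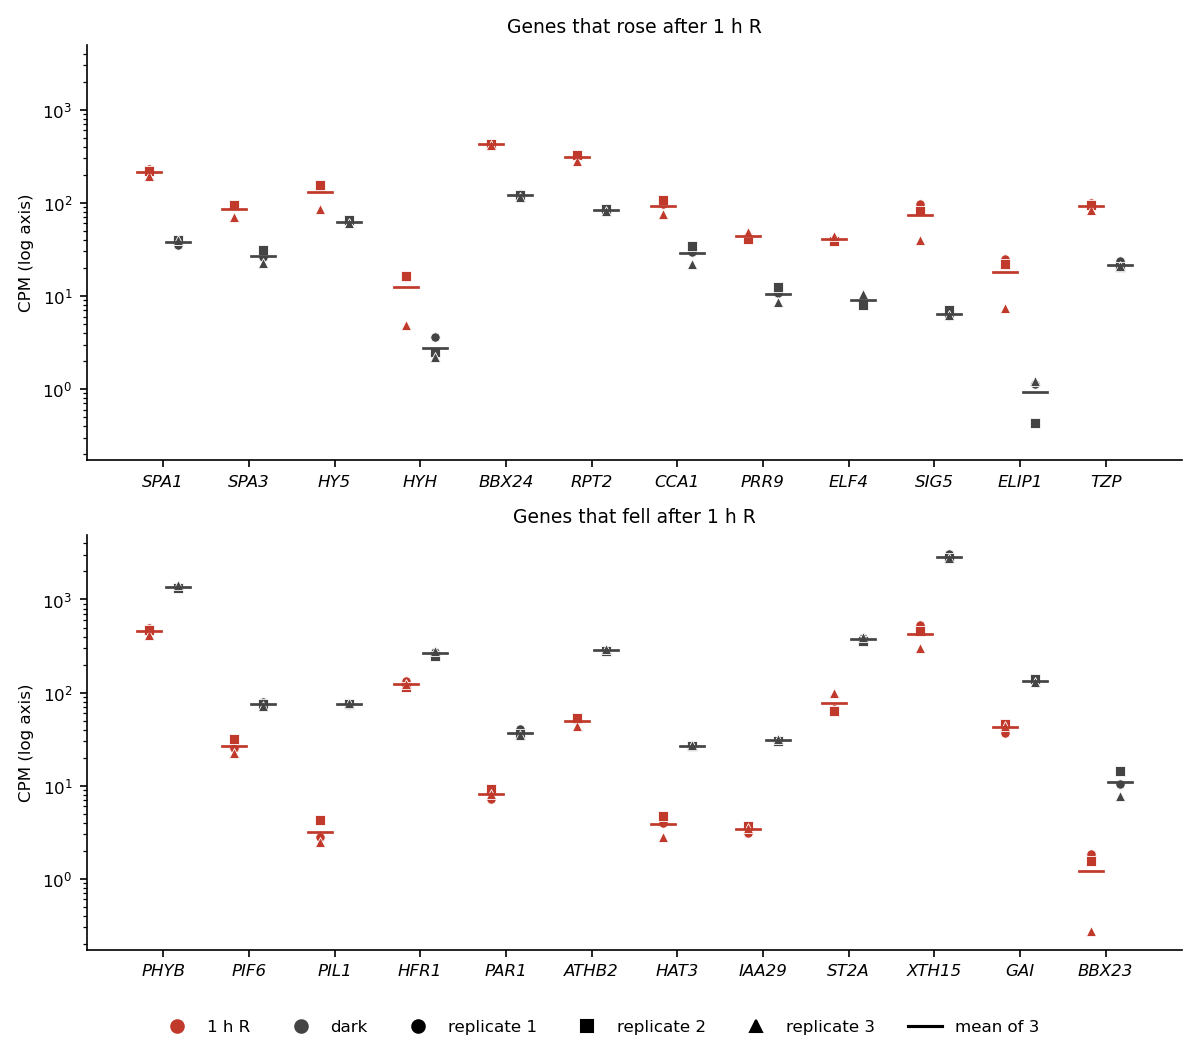
Levels in CPM on a log axis of 12 genes that rose and 12 that fell, with 1 h R libraries (red) left of dark libraries (grey), symbols for replicates and lines for means of 3. In all 24 genes the irradiated libraries lie apart from the dark ones. For most of them 1 h R replicate 3 lies below the other irradiated libraries, among them HY5, HYH, SIG5, ELIP1 and BBX23.

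PHYB, whose reads come from both the phyB mutant transcript and the transgene, fell. Its level was 491, 470.2 and 415 CPM after 1 h R, against 1367, 1322 and 1423 CPM in darkness, a log2 fold change of −1.58 ± 0.11 (adjusted p = 1.33e-18). The irradiated libraries held roughly a common level, far below all dark ones. In darkness PHYB stood higher than in aBcde, where it had 179, 166 and 155 CPM (log2 difference 3.04, adjusted p = 1.49e-32), and higher than in PHYD-YFP/abcde, where it had 112, 106 and 120.0 CPM (log2 difference 3.6, adjusted p = 1.82e-36), so the transcript follows the labels. In all, 263 genes differed from aBcde in darkness (1.27%), 193 higher (0.933%) and 70 lower (0.338%), and 442 from PHYD-YFP/abcde (2.14%), 156 higher (0.754%) and 286 lower (1.38%).

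PHYA, the receptor of far-red light that is mutated in this line but still transcribed, had 677, 691 and 494 CPM after 1 h R, against 1076, 1158 and 1137 CPM in darkness. The groups did not overlap, but the log2 fold change of −0.86 ± 0.14 (adjusted p = 5.68e-06) stayed under 2-fold. PHYC (36.5, 39.5 and 35.1 CPM, against 38.0, 39.9 and 40.0 CPM) and PHYE (35.8, 40.7 and 33.8 CPM, against 40.1, 43.7 and 40.0 CPM) changed by −0.09 and −0.16 and did not pass the test. PHYD had 18.2, 16.7 and 14.4 CPM after 1 h R, against 170.6, 21.1 and 20.1 CPM in darkness. Its call as a DEG (log2 fold change −2.10, adjusted p = 0.034) rests on dark replicate 1, without which the value was −0.32 (adjusted p = 0.888), and it is lost without any of the 1 h R libraries too. Lines with PHYD-YFP, PHYD-YFP/abCde among them, held 9292 to 36550 CPM of PHYD in darkness at 27 °C, a level whose part in dark replicate 1 was not tested.

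**Figure D2:**
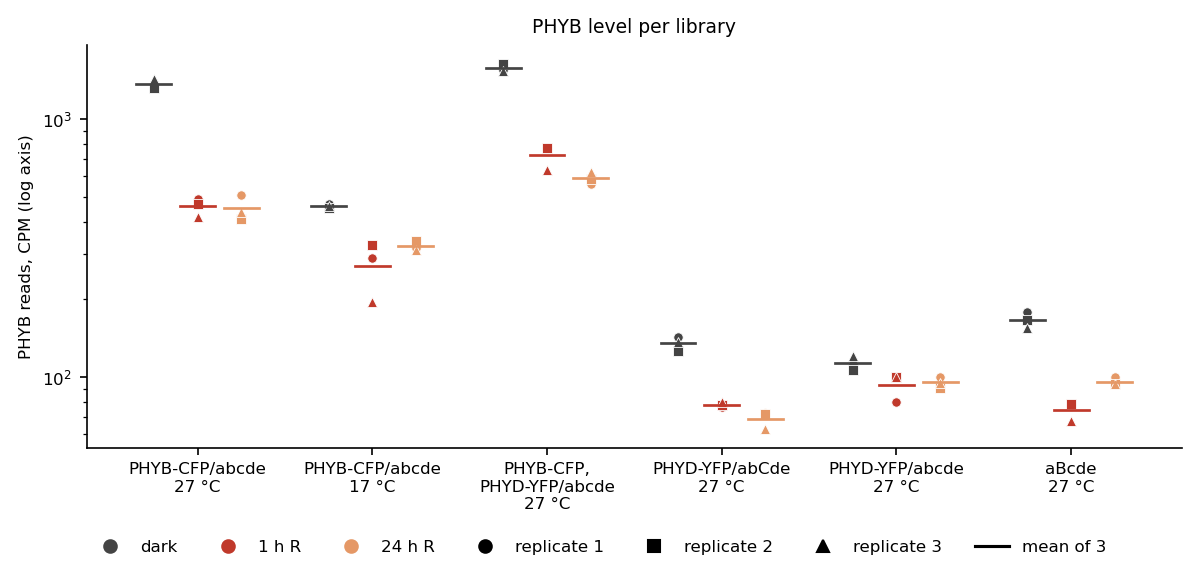
PHYB level in CPM on a log axis per library for each line, in the order dark, 1 h R and 24 h R, with a line for the mean of 3. PHYB-CFP lines at 27 °C lie far above the others in darkness, and PHYB-CFP/abcde lies between 415 and 491 CPM after 1 h R and between 410.4 and 508 CPM after 24 h R.

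Of the 7 genes for PIFs, all tested, 1 rose and 1 fell. PIF6 had 25.4, 31.7 and 22.2 CPM after 1 h R, against 79.5, 75.8 and 72.6 CPM in darkness, and fell by 1.52 ± 0.21 on the log2 scale (adjusted p = 1.47e-07). UNE10, also called PIF8, had 1.76, 3.42 and 1.51 CPM, against 1.29, 1.17 and 0.857 CPM. Its rise (log2 1.04, adjusted p = 0.0343) was carried by 1 h R replicate 2, without which it was 0.56 (adjusted p = 0.435), and it was lost without any dark library. PIF3 (log2 −0.53, adjusted p = 0.036) stayed under 2-fold, and PIF1, PIF4 and PIF5, at 0.17, −0.07 and 0.26, and PIF7, at 1.63 (adjusted p = 0.12), did not pass the test.

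Among 11 atypical bHLH genes, whose products mostly bind other bHLH factors rather than DNA, 5 fell and none rose, and the median log2 fold change was −0.68. PIL1, a shade-induced target of PIFs, had 2.79, 4.28 and 2.51 CPM after 1 h R, against 74.4, 76.0 and 76.3 CPM in darkness, which is −4.53 ± 0.27 on the log2 scale (adjusted p = 8.58e-22). All irradiated libraries lay at a small fraction of the dark level. HFR1, which sequesters PIFs, had 133, 115 and 124 CPM, against 272, 246 and 278 CPM (−1.1 ± 0.13, adjusted p = 1.72e-09), and PAR1, a similar growth repressor of the shade response, 7.20, 9.26 and 8.13 CPM, against 40.3, 35.6 and 35.1 CPM (−2.17 ± 0.20, adjusted p = 1.76e-13). IBH1 had 18.7, 14.0 and 32.8 CPM, against 63.5, 48.4 and 70.8 CPM (−1.49, adjusted p = 5.65e-04), with replicate 3 highest among irradiated libraries. BEE3, a brassinosteroid-responsive gene, had 5.78, 6.61 and 11.0 CPM, against 18.6, 14.3 and 15.2 CPM, and its fall of 1.04 shrank to under 2-fold without 1 h R replicate 1 (−0.87), 1 h R replicate 2 (−0.93) or dark replicate 1 (−0.92).

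Among 9 HD-ZIP II genes, transcription factors of the shade avoidance response, 3 fell and none rose (median −0.50). ATHB2 had 50.6, 52.7 and 43.5 CPM after 1 h R, against 276.6, 282 and 296 CPM in darkness (−2.54 ± 0.21, adjusted p = 1.32e-15). HAT3 had 4.02, 4.71 and 2.79 CPM, against 26.9, 26.9 and 27.1 CPM (−2.79 ± 0.21, adjusted p = 5.98e-17), and ATHB4 0.930, 0.817 and 0.593 CPM, against 13.5, 17.0 and 14.2 CPM (−4.24 ± 0.50, adjusted p = 1.08e-09). For each of these the groups were far apart and the dark libraries close together. HAT2 changed by −0.68 (adjusted p = 9.79e-05), under 2-fold.

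The auxin lists had median log2 fold changes of 0.06 (Aux/IAA), −0.27 (SAUR) and 0.16 (synthesis and GH3 conjugation). The shares called were 7.41%, 11.1% and 0%, beside 2.36% over all tested genes. Of 28 Aux/IAA genes, repressors of auxin response, 27 were tested, 2 fell and none rose (median 0.06). IAA29 had 3.13, 3.67 and 3.47 CPM after 1 h R, against 30.7, 30.04 and 31.6 CPM in darkness (−3.16 ± 0.23, adjusted p = 2.46e-18), a narrow range within each group. IAA20 had 14.0, 15.2 and 6.85 CPM, against 27.8, 30.1 and 28.4 CPM (−1.25, adjusted p = 0.0116), and without 1 h R replicate 3 it was at −0.98 (adjusted p = 0.174). Of 9 SAUR genes, which promote cell expansion, SAUR22 fell, with 2.15, 2.43 and 4.84 CPM against 7.67, 9.28 and 10.08 CPM (−1.53, adjusted p = 0.00102). None of 14 tested genes of auxin synthesis and GH3 conjugation, of 16 listed, passed.

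Of 9 genes for HY5, HYH, COP1, SPA and RUP proteins, all tested, 5 rose and none fell (median 1.06). SPA1, a COP1 partner, had the smallest p of all genes: 233.5, 221 and 192 CPM after 1 h R, against 35.5, 40.2 and 39.4 CPM in darkness, which is 2.49 ± 0.14 on the log2 scale (adjusted p = 1.69e-22). SPA3, its relative, had 94.0, 93.9 and 70.3 CPM, against 26.1, 31.4 and 22.8 CPM (1.69 ± 0.16, adjusted p = 1.20e-12). RUP2, a repressor of the UV-B receptor, had 20.03, 18.2 and 12.9 CPM, against 3.55, 4.48 and 5.39 CPM (1.93 ± 0.25, adjusted p = 1.91e-08). In all of these the groups were separate, with replicate 3 the lowest irradiated library.

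HY5, the bZIP factor that drives photomorphogenesis, had 153, 154 and 86.5 CPM after 1 h R, against 62.6, 65.4 and 60.7 CPM in darkness (1.06 ± 0.21, adjusted p = 3.21e-04). Replicate 3 was far lower than the other irradiated libraries though still above all dark ones, and without 1 h R replicate 1 or 2 the value was 0.94 or 0.93, under 2-fold. HYH, its homolog, had 16.1, 16.4 and 4.84 CPM, against 3.604, 2.51 and 2.22 CPM (2.17 ± 0.42, adjusted p = 1.78e-04), again lowest in replicate 3. COP1 (0.39), SPA4 (0.65) and SPA2 (0.01) stayed under 2-fold.

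B-box zinc finger proteins modulate HY5 and COP1 activity. Of 13 B-box genes tested, 6 rose and 2 fell (median 0.98). BBX24 had 431.5, 425 and 415 CPM after 1 h R, against 123, 122 and 116 CPM in darkness (1.82 ± 0.12, adjusted p = 9.28e-20), with little spread in either group. BBX25, its closest relative, had 9.55, 9.46 and 7.21 CPM, against 1.75, 1.12 and 0.554 CPM (2.93), and BBX18 6.66, 5.47 and 3.83 CPM, against 0.875, 0.960 and 1.51 CPM (2.24). The microprotein genes BBX30 and BBX31 and the gene BBX32 were near 0 in darkness. BBX30 had 21, 54 and 38 counts after 1 h R and 0 in every dark library. With 3 counts over the dark group as the limit that a count of 0 allows (0.0517 CPM), it was at least 26.4-fold higher after 1 h R. BBX31 had 63, 116 and 122 counts, against 4, 0 and 0, and BBX32 33, 52 and 29 counts, against 2, 2 and 2. The genes that fell were BBX23 and BBX20, which act with HY5 in photomorphogenesis. BBX23 had 1.86, 1.54 and 0.274 CPM, against 10.5, 14.3 and 7.81 CPM (−3.1 ± 0.48, adjusted p = 1.72e-06). BBX20 had 65.6, 67.5 and 43.2 CPM, against 124.6, 108 and 125 CPM (−1.02, adjusted p = 6.33e-04), and came just under 2-fold without 1 h R replicate 3 (−0.84), dark replicate 1 or dark replicate 3 (both −0.98).

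Of 27 clock genes, all tested, 10 rose and none fell (median 0.45), and 10 were called whichever of the 6 libraries was left out. Of the 10 CCA1, LHY and REVEILLE genes, which encode related MYB factors, CCA1, LHY, RVE1, RVE2 and RVE8 rose. RVE4 (0.44, adjusted p = 0.0139) and RVE7 (0.67, adjusted p = 0.0307) stayed under 2-fold, and ASG4, also called RVE3 (1.3, adjusted p = 0.418), AT4G01280, or RVE5 (0.22), and AT5G52660, or RVE6 (0.24), did not pass. CCA1, expressed in the morning, had 97.98, 107 and 75.2 CPM after 1 h R, against 29.5, 34.5 and 21.8 CPM in darkness (1.71, adjusted p = 2.22e-09), and LHY 46.1, 43.5 and 26.7 CPM, against 9.37, 11.8 and 8.31 CPM (1.98). RVE1, which links the clock to auxin, had 124, 128 and 117 CPM, against 43.6, 48.6 and 45.7 CPM (1.42 ± 0.13, adjusted p = 3.45e-14). RVE2 (1.31), a relative with 402, 370.1 and 368 CPM against 163, 154 and 142 CPM, and RVE8 (1.25), an activator of evening genes with 73.5, 71.7 and 69.3 CPM against 28.3, 33.9 and 28.2 CPM, gave the same picture: no overlap and narrow groups.

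The other clock genes that rose were PRR9, PRR5, ELF4, LNK1 and LNK3. PRR9, a pseudo-response regulator that represses CCA1 and LHY, had 43.9, 40.7 and 48.8 CPM after 1 h R, against 10.7, 12.3 and 8.57 CPM in darkness (2.08 ± 0.32, adjusted p = 1.17e-06). PRR5, of the same family, had 131, 135 and 143 CPM, against 44.9, 42.1 and 43.4 CPM (1.65). ELF4, of the evening complex, had 40.8, 38.8 and 44.1 CPM, against 8.80, 7.95 and 10.5 CPM (2.18 ± 0.21, adjusted p = 1.20e-12). In these genes replicate 3 was as high as the other irradiated libraries or higher. The same held for the transcriptional coactivator genes LNK1 (161, 157 and 167 CPM, against 68.7, 68.7 and 75.7 CPM, log2 1.18) and LNK3 (86.9, 83.5 and 96.1 CPM, against 26.8, 31.7 and 34.7 CPM, log2 1.52). TOC1 (0.11), PRR7 (−0.15), ELF3 (0.05) and LUX (−0.11) did not pass, and GI (0.62, adjusted p = 5.92e-04) stayed under 2-fold.

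Of 12 further genes of phytochrome and phototropin signaling, 1 rose and 1 fell. RPT2, a scaffold of phototropism, had 326.5, 323 and 280 CPM after 1 h R, against 86.5, 85.2 and 81.8 CPM in darkness (1.87 ± 0.14, adjusted p = 4.65e-17). FHL, which carries phyA into the nucleus, had 9.74, 8.17 and 9.22 CPM, against 20.7, 17.7 and 19.3 CPM (−1.09, adjusted p = 3.13e-05). Neither gene's groups overlapped. PHOT1, the main phototropin, changed by −0.86 (adjusted p = 1.83e-06), under 2-fold. Of 11 tested CDF and CONSTANS-like genes, regulators of flowering, CDF3 (71.4, 70.6 and 59.0 CPM, against 18.9, 19.1 and 19.6 CPM, log2 1.80) and CDF1 (AT5G62430, 13.3, 15.5 and 15.3 CPM, against 3.14, 4.70 and 3.73 CPM, log2 1.93) rose and none fell.

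Most genes of the photosynthetic apparatus were not called at 1 h. The share that rose was above the 1.56% of all tested genes, a difference that was not tested. Of 21 antenna genes, 3 rose and none fell (median 0.33), and of 17 genes of chlorophyll synthesis 3 rose and none fell (median 0.16). LHCB2.1 had 45.3, 36.4 and 10.7 CPM after 1 h R, against 7.57, 6.67 and 5.80 CPM in darkness (2.21, adjusted p = 5.42e-04), and LHCB2.2 40.9, 34.0 and 10.7 CPM, against 9.27, 8.91 and 7.71 CPM (1.73, adjusted p = 8.09e-04). These near-identical neighbors may share reads. LHCB3 had 120.2, 98.1 and 40.4 CPM, against 38.0, 43.5 and 34.8 CPM, with overlapping groups, and its call (log2 1.15, adjusted p = 0.0449) was lost without any dark library and without 1 h R replicate 1 (0.84) or 2 (1.05). Replicate 3 was by far the lowest irradiated library in each, and without it 5 antenna genes passed.

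CHLH, a subunit of the magnesium chelatase at the head of chlorophyll synthesis, had 368, 308 and 141 CPM after 1 h R, against 95.9, 105 and 86.5 CPM in darkness (1.51, adjusted p = 4.29e-05). GUN4, its activator, had 37.5, 30.9 and 12.4 CPM, against 5.97, 7.04 and 5.59 CPM (2.12, adjusted p = 9.90e-06). CAO, which makes chlorophyll b, stood at 2-fold (117, 117 and 91.4 CPM, against 58.5, 50.6 and 53.2 CPM, log2 1.00, adjusted p = 8.18e-07), and the value was 0.95 without 1 h R replicate 1 or 2, 0.96 without dark replicate 2 and 0.99 without dark replicate 3. In each of these the groups were separate.

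Of 6 genes for ELIP, OHP and SEP proteins, which bind pigments under light stress, ELIP1 and ELIP2 rose. ELIP1 had 24.7, 21.8 and 7.49 CPM after 1 h R, against 1.13, 0.427 and 1.21 CPM in darkness (4.27 ± 0.54, adjusted p = 6.93e-09). ELIP2 had 13.0, 7.68 and 1.42 CPM, against 0.566, 0.480 and 0 CPM (4.38 ± 0.67, adjusted p = 1.43e-06). Both spread widely among irradiated libraries, with replicate 3 closest to the dark ones. Of 7 tested genes of flavonoid synthesis, of 11 listed, CHS for chalcone synthase had 15.3, 13.5 and 3.83 CPM, against 4.84, 4.22 and 1.97 CPM. Its groups overlapped, and the call (log2 1.58, adjusted p = 0.0346) was lost without 1 h R replicate 1 (1.27) or 2 (1.38) and without any dark library, with values of 1.27 to 1.83.

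Of 10 genes for plastid regulators, 5 rose and none fell (median 0.57). SIG5, a light-induced sigma factor of the plastid RNA polymerase, had 97.2, 82.3 and 40.1 CPM after 1 h R, against 6.08, 7.04 and 6.25 CPM in darkness (3.5 ± 0.26, adjusted p = 7.00e-18). GLK2, a driver of chloroplast development, had 235, 248 and 141 CPM, against 51.2, 49.7 and 60.5 CPM (1.95, adjusted p = 7.13e-12). Neither gene's groups overlapped. The GATA factor gene CGA1 had 10.4, 8.30 and 4.75 CPM, against 3.09, 1.23 and 2.72 CPM (1.73, adjusted p = 4.22e-04). SIG1 (33.8, 33.6 and 17.9 CPM, against 14.6, 15.5 and 11.99 CPM, log2 1.02) and the GATA factor gene GNC (54.6, 59.5 and 21.1 CPM, against 21.2, 23.7 and 20.5 CPM, log2 1.05) were at the edge of the thresholds. SIG1 was not called without 1 h R replicate 1 or 2 (both 0.88) or dark replicate 3 (0.92), and GNC not without 1 h R replicate 1 (0.89) or 2 (0.80) or any dark library (1.01 to 1.12).

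GAI, a DELLA repressor of gibberellin response, was among the 12 genes that fell with the smallest p: it had 37.2, 45.5 and 44.1 CPM after 1 h R, against 128, 138.5 and 131 CPM in darkness (−1.65 ± 0.12, adjusted p = 3.06e-18). Of 9 tested gibberellin enzymes 2 rose, both at low levels. GA20OX1, for synthesis, had 3.87, 2.85 and 4.79 CPM, against 0.978, 1.87 and 1.16 CPM (1.51, adjusted p = 0.00863), and was not called without 1 h R replicate 3 (1.32), dark replicate 1 (1.33) or dark replicate 3 (1.42). GA2OX1, for inactivation, had 10, 16 and 8 counts, against 0 in every dark library, so it was at least 7.95-fold higher with 3 counts over the dark group as the limit, and its adjusted p of 0.0253 went above 0.05 without 1 h R replicate 1 or any dark library (0.0503 to 0.103). None of 6 brassinosteroid enzyme genes was a DEG, and CPD, for synthesis, changed by −0.72 (adjusted p = 0.00544), under 2-fold.

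Of 8 tested genes of ethylene synthesis and hook formation 3 fell and none rose. HLS1, needed for the apical hook, had 22.9, 30.1 and 15.5 CPM after 1 h R, against 55.9, 61.8 and 48.1 CPM in darkness (−1.27, adjusted p = 5.65e-05). The ACC synthase genes ACS5 (1.37, 0.966 and 1.42 CPM, against 4.63, 4.16 and 4.54 CPM) and ACS8 (0.392, 0.149 and 0.183 CPM, against 1.34, 1.28 and 1.36 CPM) fell by 1.85 (adjusted p = 0.00202) and 2.51 (adjusted p = 6.11e-04) on the log2 scale. CKX5, a cytokinin oxidase gene, was the only call among 14 tested genes of its list and fell by 1.28 (8.52, 7.11 and 5.57 CPM, against 16.7, 16.0 and 18.9 CPM, adjusted p = 7.96e-06). Of 13 tested jasmonate genes 2 fell, ST2A, a hydroxyjasmonate sulfotransferase gene, with 66.4, 63.1 and 99.7 CPM against 388, 356 and 391 CPM (−2.31, adjusted p = 1.99e-15), and its paralog ST2B (12.5, 13.1 and 13.4 CPM, against 30.1, 35.1 and 30.8 CPM, log2 −1.30). The groups of all these genes were separate.

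Of 23 genes for xyloglucan enzymes and expansins, which loosen cell walls, 1 fell and 1 rose (median 0.09). XTH15 had 528, 462 and 301 CPM after 1 h R, against 3073, 2799 and 2756 CPM in darkness (−2.74 ± 0.27, adjusted p = 1.37e-12). EXPA10 had 13.3, 13.1 and 12.8 CPM, against 4.79, 4.75 and 4.18 CPM (1.51, adjusted p = 3.83e-05). HSP70 was the only call among 11 heat-shock genes, with 558, 581 and 558 CPM against 223, 218 and 224 CPM (1.35, adjusted p = 0.00325). The summed level of the 11 genes was 1165, 1231 and 1102 CPM, against 610, 633 and 627 CPM, without overlap. For 5 of the 11, all irradiated libraries lay above the dark ones, and for 0 below. Over all tested genes these shares were 12.6% and 13.2%. None of 8 touch and wound genes was called (median 0.71). For 6 of these 8, all irradiated libraries lay above the dark ones, and for 0 below. Their summed level was 373, 427 and 674 CPM, against 393, 347 and 375.5 CPM, highest in 1 h R replicate 3.

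**Figure D3:**
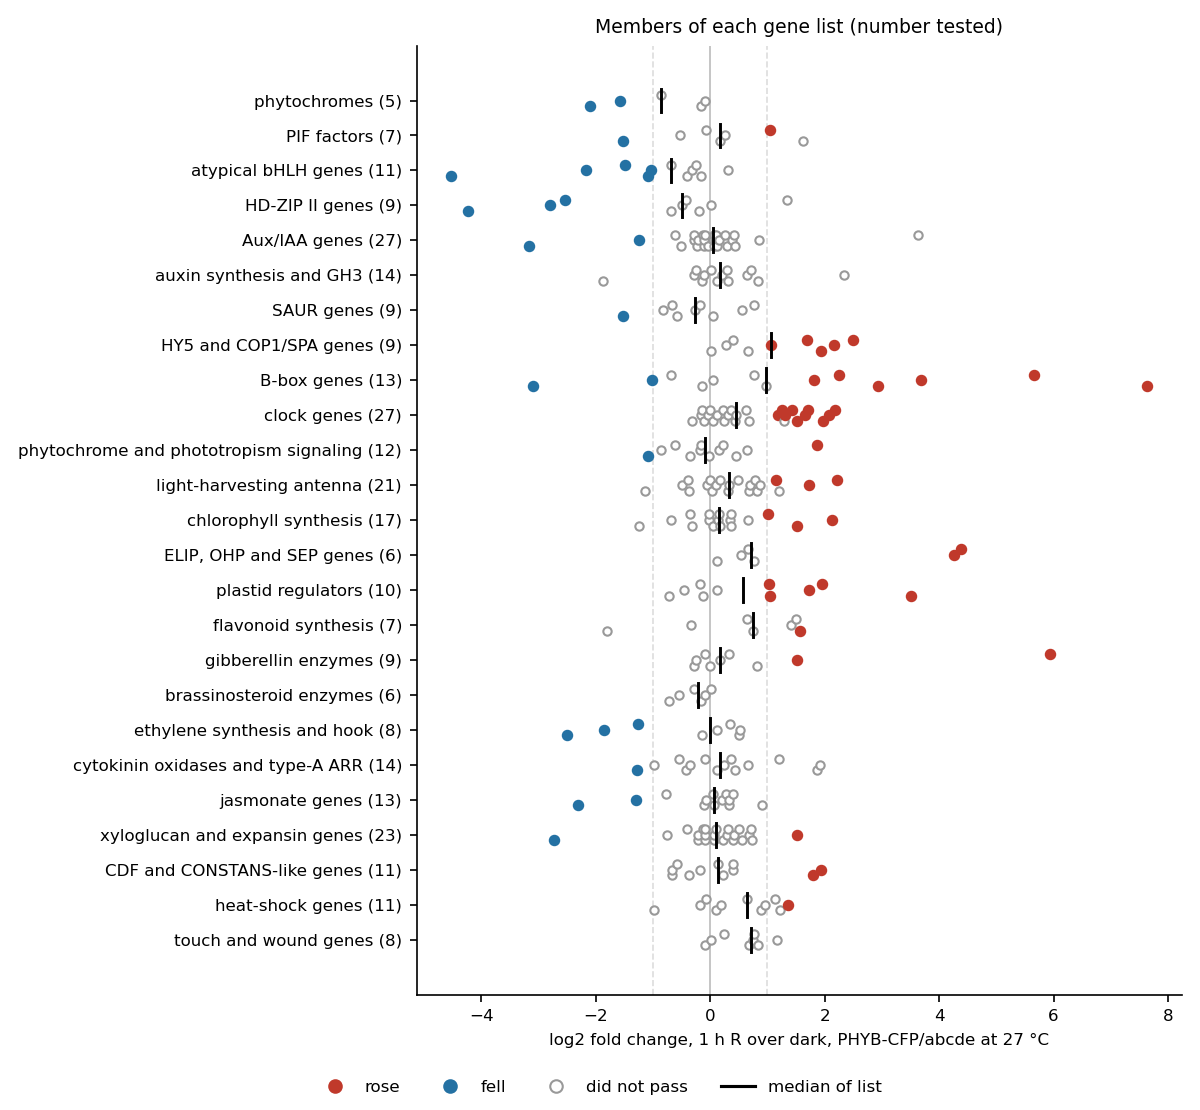
Log2 fold change of each tested member of 25 gene lists after 1 h R, 1 point per gene, filled where the gene rose (red) or fell (blue) with an adjusted p under 0.05 and at least 2-fold, with a black line for the median of the list. Called members lie left of 0 in the atypical bHLH, HD-ZIP II and ethylene lists and right of 0 in the HY5, clock, plastid and chlorophyll lists, and the fitted positions of BBX30 and GA2OX1, at 0 counts in darkness, are no measure of size.

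Other genes among the 12 each way with the smallest p belong to none of the lists. TZP, a zinc knuckle protein gene of phyB signaling, had 99.1, 95.2 and 83.7 CPM after 1 h R, against 23.8, 20.3 and 21.0 CPM in darkness (2.09 ± 0.12, adjusted p = 5.47e-22). NUDX19, a Nudix hydrolase gene, had 57.1, 57.2 and 58.7 CPM, against 14.0, 10.8 and 10.8 CPM (2.28 ± 0.14, adjusted p = 7.48e-21), AT1G64500 had 33.0, 35.4 and 26.9 CPM, against 4.43, 3.63 and 3.07 CPM (3.1), and AT3G02910 rose by 1.93. FLP1, a relative of the flowering promoter FPF1, had 60.7, 60.5 and 44.1 CPM, against 319, 271 and 288 CPM (−2.41, adjusted p = 1.26e-15). AT5G05965, with G-boxes in its printed stretch, had 3.97, 5.60 and 4.75 CPM, against 63.6, 52.2 and 67.3 CPM (−3.66), AT5G02580 10.09, 11.5 and 10.8 CPM, against 88.1, 74.9 and 72.0 CPM (−2.86), and AT5G44260 and AT4G28240 fell by 2.03 and 1.5 on the log2 scale. Genes were taken here only where the irradiated and the dark libraries did not overlap, so that separation is no finding.

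Genes bound by phytochromes or PIFs were looked up from lists that the study gives from ChIP experiments and that do not rest on these libraries. The seedlings of the phytochrome ChIP were older than those sequenced, were grown at 17 °C and received R for minutes only. The PHYB-GFP line overexpressed the fusion and kept the other phytochromes, and the joint list adds genes bound by PHYD-YFP in the presence of phyC. The effect of these differences was not tested. Of 38 genes bound by PHYB-GFP after a pulse of R, 25 were tested, 9 fell and none rose (median −0.68): PIL1, PAR1, IBH1, PIF6, ATHB2, XTH15, FLP1, ACS8 and AT5G02580. Of 99 joint targets of phyB and phyD, 81 were tested, 20 fell and LNK3 alone rose (median −0.16). Of 338 direct PIF targets, 323 were tested, 45 fell and 15 rose (median −0.04), and of the 78 that the study lists as responsive to light, 77 were tested, 22 fell and 9 rose (median −0.30). The shares called were 36%, 25.9%, 18.6% and 40.3%, beside 2.36% over all tested genes. The 250 bases before the start held a G-box in 21.7% of the tested PIF targets and in 0 of the 25 tested PHYB-GFP bound genes, beside 7.43% of all tested genes. Within 1000 bases, a window chosen after seeing the data, the shares were 41.2%, 28% (7 of 25 genes) and 16%.

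Between 1 h and 24 h R in the same line at 27 °C, 2355 genes (11.4%) differed, 1753 higher (8.47%) and 602 lower (2.91%) at 24 h. The comparisons of 1 h R and of 24 h R with darkness share the dark libraries, so levels are given side by side, in the order of time. Several signaling and clock genes were highest at 1 h among these 3 points. HY5 averaged 62.9 CPM in darkness, 131 CPM after 1 h and 21.1 CPM after 24 h (24 h over 1 h −2.63 ± 0.23, adjusted p = 4.14e-15), with 16.3, 22.1 and 25.04 CPM in the 24 h libraries, all below the dark ones. LNK3 had 18.9, 20.5 and 21.6 CPM at 24 h (−2.13 ± 0.19, adjusted p = 9.06e-15) and PRR9 4.1, 3.79 and 4.15 CPM (−3.47), again below darkness. SPA1 had 116, 101 and 99.6 CPM at 24 h (−1.03), above darkness and below 1 h, CCA1 32.3, 36.1 and 33.6 CPM (−1.46) and ELIP1 0.362, 0.452 and 1.33 CPM (−4.63), both near darkness.

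Antenna and chlorophyll genes had not reached their later levels at 1 h. LHCB1.1 had 5.34, 5.13 and 1.19 CPM at 1 h and 1742, 1907 and 1134 CPM at 24 h (24 h over 1 h 8.66 ± 0.51, adjusted p = 2.46e-22), and LHCB3 3008, 3377 and 2382 CPM at 24 h (5.08). CHLH had 1938, 1793 and 1567 CPM at 24 h (2.7). Against darkness, where 24 h R gave 2565 DEGs (12.4%), 20 of 21 antenna genes and 15 of 17 chlorophyll genes were higher at 24 h, beside 9.48% of all genes that were higher and 2.91% that were lower, and their median log2 fold changes were 4.54 and 2.21. Also higher at 24 h than at 1 h, by the smallest p, were BT1, a BTB-TAZ scaffold gene (3.86), CARAB-AK-LYS, an aspartate kinase gene (2.47), and AT1G25550 (1.78), and lower were AT3G54510 (−2.13) and AT5G02540 (−2.29). PHYB stayed low, with 508, 410.4 and 437 CPM at 24 h (24 h over 1 h −0.02), as did PIL1, with 3.38, 1.53 and 0.829 CPM (−0.79).

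**Figure D4:**
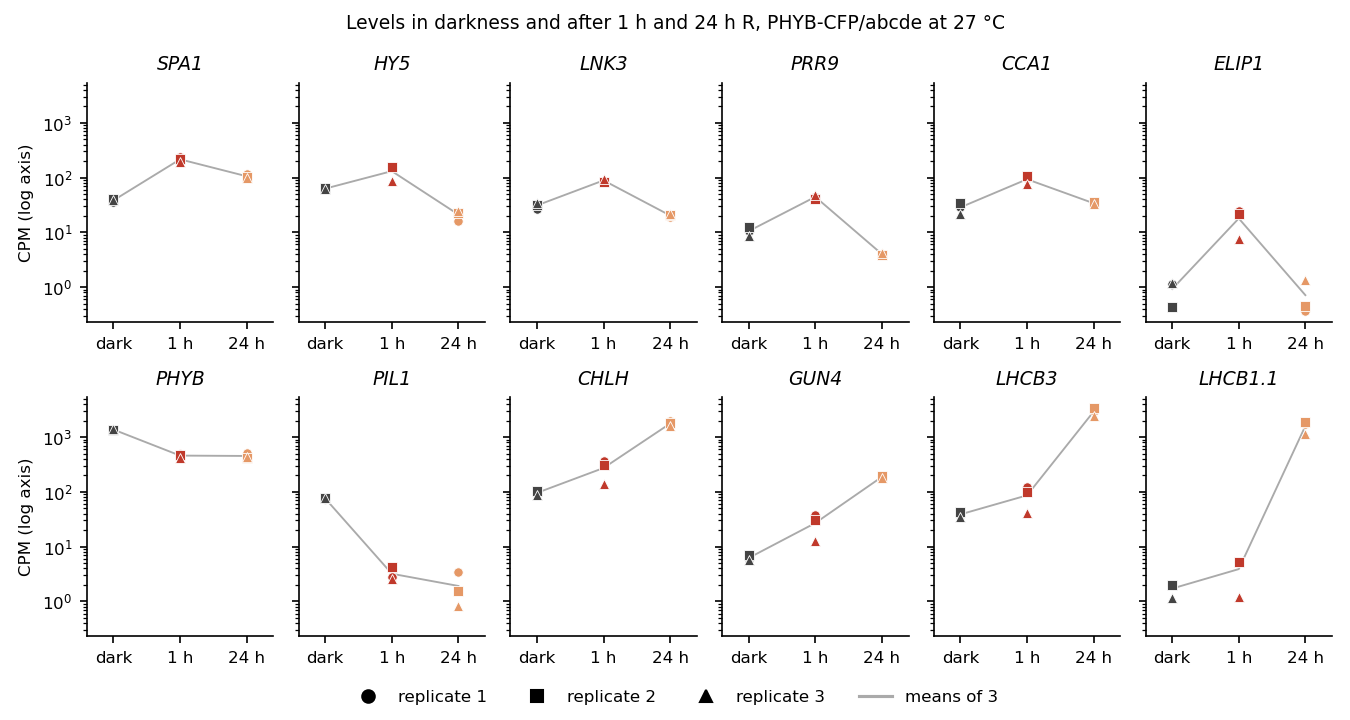
Levels in CPM on a shared log axis of 12 genes in PHYB-CFP/abcde at 27 °C in darkness and after 1 h and 24 h R, with symbols for replicates and a line through the means of 3. SPA1, HY5, LNK3, PRR9, CCA1 and ELIP1 are highest at 1 h, PHYB and PIL1 stay low from 1 h on, and CHLH, GUN4, LHCB3 and LHCB1.1 are highest at 24 h.

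The response was next set against that of aBcde, in which native phyB takes the place of phyB-CFP, at 27 °C. In aBcde 366 genes were DEGs (1.77%), 208 up (1.01%) and 158 down (0.763%). For 0 genes did the responses differ with an adjusted p under 0.05 and 2-fold by edgeR (558 at an unadjusted p under 0.05), and limma on quantile-normalized values also gave 0. DESeq2 gave 4, named here after their values were seen: AT1G26390, AT2G15220, ACA2 and CYP82C2, all at means under 0.35 CPM in PHYB-CFP/abcde and all with an adjusted p of 1 by edgeR. Of the 488 DEGs, 231 were DEGs in the same direction in aBcde, which is 47.3% of these DEGs and 63.1% of those of aBcde. Genes that rose here had a median log2 fold change of 1.44 in PHYB-CFP/abcde and 1.02 in aBcde, and those that fell −1.39 and −1.26. The genes were chosen in PHYB-CFP/abcde, so larger medians there are no finding. SPA1, for example, changed by 2.49 in PHYB-CFP/abcde and 2.03 in aBcde, PIL1 by −4.53 and −4.86, and PHYB by −1.58 and −1.17.

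Against the same line at 17 °C, where 75 genes were DEGs (0.362%), 49 up (0.237%) and 26 down (0.126%), the response differed for 55 genes (0.266%). It was higher for 27 (0.13%), of which 25 rose at 27 °C, and lower for 28 (0.135%), of which 25 fell at 27 °C. Both tests use the same libraries at 27 °C, so this overlap is partly built in. PRR9 changed by 2.08 at 27 °C and 0.23 at 17 °C (difference 1.84, adjusted p = 0.0431), LHY by 1.98 and 0.49 (1.48, adjusted p = 0.00815), SIG5 by 3.5 and 1.64 (1.87, adjusted p = 0.00296), CHLH by 1.51 and −0.07 (1.58, adjusted p = 0.0287) and GUN4 by 2.12 and 0.19 (1.93, adjusted p = 0.0361). Among genes that fell, ATHB2 changed by −2.54 at 27 °C and −1.11 at 17 °C (−1.44, adjusted p = 0.00305), XTH15 by −2.74 and −0.85 (−1.89, adjusted p = 0.00231), PAR1 by −2.17 and −0.85 (−1.31, adjusted p = 0.00596) and HAT3 by −2.79 and −1.49 (−1.30, adjusted p = 0.00975). Genes with the smallest p for the difference included ABCG19, a transporter gene (1.83 at 27 °C, 0.12 at 17 °C), ZFN1, a zinc finger protein gene (2.06 and −0.05), AT5G05965 (−3.66 and −1.44), AT5G02580 (−2.86 and −1.21) and AT1G21830 (−1.25 and −0.14). PKS1, for a phytochrome kinase substrate, changed more at 17 °C. At 27 °C it had 35.4, 41.1 and 49.3 CPM after 1 h R against 35.7, 32.0 and 39.9 CPM in darkness (0.22), with overlapping groups, and did not pass. At 17 °C its means were 74.9 CPM after 1 h R (SD 20.1) and 26.0 CPM in darkness (SD 3.25), a change of 1.53. Dark levels differed too: ABCG19 had 4.17, 5.92 and 4.79 CPM in darkness at 27 °C and a mean of 21.9 CPM in darkness at 17 °C, and PHYB, with 1322 to 1423 CPM at 27 °C, had 466, 452 and 462 CPM at 17 °C.

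Against PHYD-YFP/abcde, which lacks PHYB-CFP and had 66 DEGs at 27 °C (0.319%), 58 up (0.28%) and 8 down (0.0387%), the response differed for 150 genes (0.725%), 76 higher (0.367%) and 74 lower (0.358%). Of these, 68 rose and 59 fell in PHYB-CFP/abcde, an overlap that is partly built in because both tests use its libraries. TZP changed by 2.09 in PHYB-CFP/abcde and 0.00 in PHYD-YFP/abcde (difference 2.09 ± 0.17, adjusted p = 3.99e-14), SPA1 by 2.49 and 0.38 (2.11 ± 0.20, adjusted p = 2.29e-12), NUDX19 by 2.28 and 0.39 (1.89) and BBX24 by 1.82 and 0.26 (1.56). PIL1 changed by −4.53 and −0.91 (−3.62 ± 0.34, adjusted p = 4.84e-12), AT5G05965 by −3.66 and −0.42 (−3.24), FLP1 by −2.41 and −0.26 (−2.15) and PHYB by −1.58 and −0.28 (−1.30). IAA29 and ATHB2 fell in PHYD-YFP/abcde as well, by 1.4 and 1.08, but less than in PHYB-CFP/abcde, and both differences passed.

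Against PHYB-CFP, PHYD-YFP/abcde, with 750 DEGs at 27 °C (3.62%), 596 up (2.88%) and 154 down (0.744%), the response differed for 67 genes (0.324%), 2 higher (0.00966%) and 65 lower (0.314%). Of the 11 heat-shock genes, 1 rose in PHYB-CFP/abcde, with a median log2 fold change of 0.64 over the list, and 11 rose in PHYB-CFP, PHYD-YFP/abcde, with a median of 4.14. In PHYD-YFP/abcde 1 rose, with a median of 1.27. Touch and wound genes moved with them in PHYB-CFP, PHYD-YFP/abcde, where 5 of 8 rose (median 1.59), against 0 of 8 in PHYB-CFP/abcde (median 0.71), and their part in the difference was not tested. ATHSP22.0, a small heat-shock protein gene, changed by 0.19 in PHYB-CFP/abcde and 4.14 in PHYB-CFP, PHYD-YFP/abcde (difference −3.95 ± 0.55, adjusted p = 3.68e-06), and AT1G59860 by 0.34 and 4.3 (−3.97). GSTF8, a glutathione transferase gene, had 471.5, 439 and 495 CPM after 1 h R in PHYB-CFP/abcde, against 248, 220 and 204 CPM in darkness (1.07), and changed by 2.84 in the other line (difference −1.78 ± 0.24, adjusted p = 2.81e-06). NFXL1, a zinc finger factor gene, changed by 0.05 and 1.29 (−1.25). The genes with a higher response in PHYB-CFP/abcde were AT3G42800 (1.1 against −0.62, adjusted p = 0.0351) and AT4G21820 (1.02 against −1.29, adjusted p = 0.0446). For the light signaling genes named above, among them SPA1 (2.49 and 2.30), BBX24 (1.82 and 1.72) and ATHB2 (−2.54 and −2.64), the difference did not pass.

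**Figure D5:**
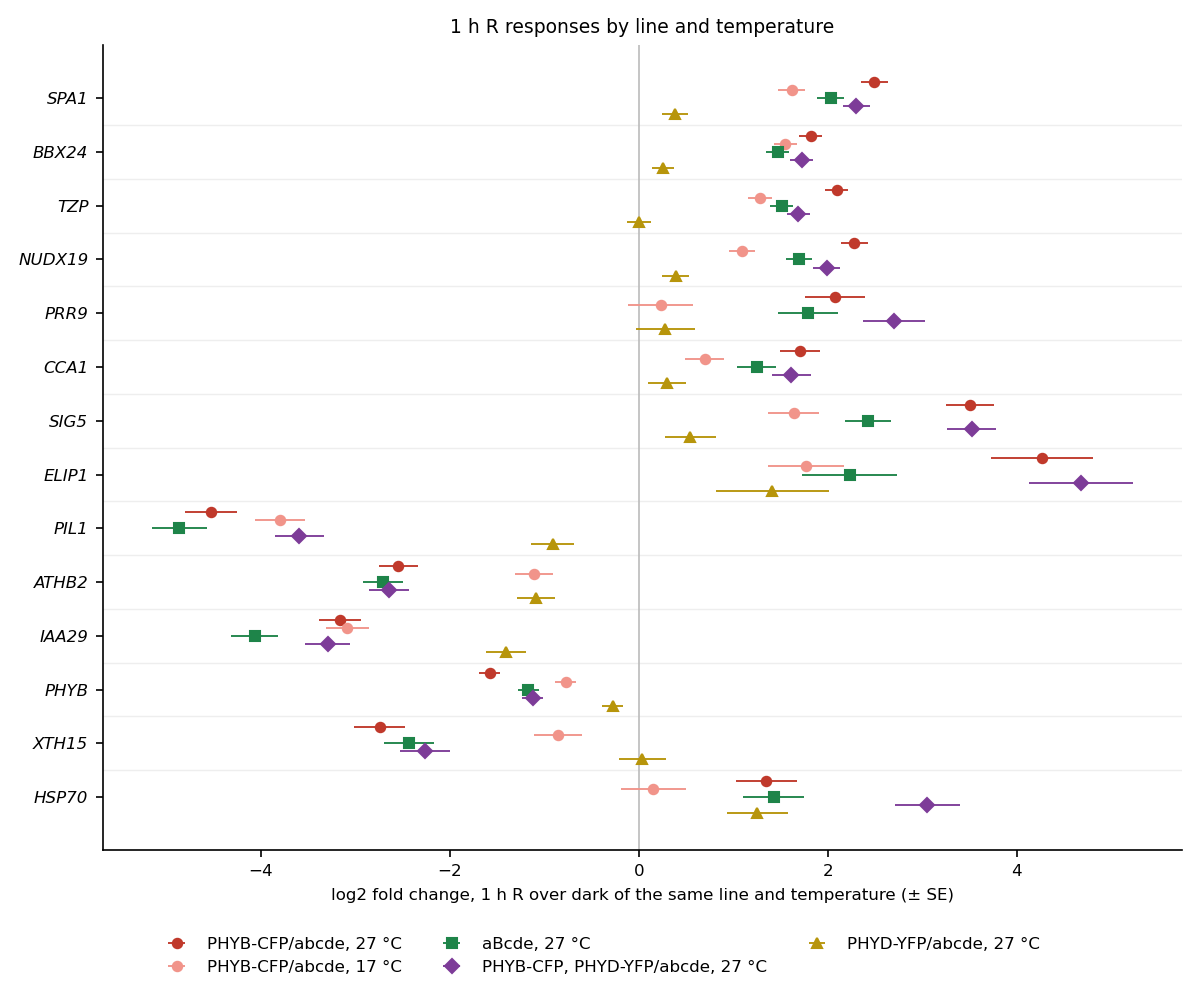
Log2 fold change of 14 genes after 1 h R over darkness within a line and temperature, with SE bars from the fit, for PHYB-CFP/abcde at 27 and 17 °C and the other lines at 27 °C. SPA1, BBX24, TZP and PIL1 changed far less in PHYD-YFP/abcde, PRR9 and XTH15 changed less at 17 °C, and HSP70 has its largest value, 3.05, in PHYB-CFP, PHYD-YFP/abcde.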

How the data were processed

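Total RNA from 3 replicates of each of 30 groups (5 lines, 2 temperatures, dark, 1 h and 24 h R) was sequenced as polyadenylated RNA. The authors checked reads with FastQC, aligned them with STAR to TAIR10 and made the deposited table of raw counts per gene with HTSeq. The strand setting is not given in the sources used here, so reads of overlapping genes cannot be told apart. The table holds 28775 genes in 90 libraries of 15010386 to 41124234 counted reads, with 0 columns of no sample and 0 pairs of identical libraries. In the 6 libraries compared, the count minimum of 5 stands for 0.124 to 0.267 CPM.

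Groups were taken from the labels. Organelle genes (279) and genes of tRNAs and rRNAs (627) were dropped, and genes with at least 5 counts in 23 of the 90 libraries were kept, which left 20695. Counts were fitted with edgeR 4.0.16 in R 4.3.3 (TMM scaling, quasi-likelihood test, 30 group means over all 90 libraries, 60 residual degrees of freedom, prior count 0.125). The differences between responses were contrasts of the same fit. The thresholds were an adjusted p under 0.05 and 2-fold. Alternatives used DESeq2 1.42.0, limma 3.58.1 on quantile-normalized values, other filters, other sets of libraries, a replicate block and each library left out, and the fits were tested on simulated data.

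The text names PHYA to PHYE, the members of the gene lists that were called with a few others per list, the genes of lowest p among called genes whose groups did not overlap (at most 12 that rose and 12 that fell), and at most 4 in each direction for each further comparison. Members and lists were chosen with earlier results of these data known. Gene names for 28009 IDs and the windows of 250 bases before each start came from the RefSeq annotation and genome of TAIR10.1.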

Additional observations from a re-analysis of the deposited data

Results flagged for a closer look

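For 22 of the named differences, the change after 1 h R in PHYB-CFP/abcde at 27 °C differed from the change at 17 °C or in another line by a test of the difference itself (edgeR quasi-likelihood test, Benjamini-Hochberg over all genes). The genes were picked as those with the smallest p, and no explanation was weighed. All values are differences of log2 fold changes, PHYB-CFP/abcde at 27 °C minus the other.

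Against 17 °C the difference was 1.71 ± 0.26 for ABCG19 (adjusted p = 4.22e-05), 1.19 ± 0.20 for NUDX19 (adjusted p = 2.04e-04), 2.11 ± 0.36 for ZFN1 and 1.41 ± 0.24 for AT5G65990. AT5G65990 had 29.2, 32.4 and 35.4 CPM after 1 h R, against 20.03, 17.98 and 18.1 CPM in darkness at 27 °C (log2 0.79), and changed by −0.62 at 17 °C. The difference was −2.22 ± 0.32 for AT5G05965 (adjusted p = 2.44e-05), −1.65 ± 0.25 for AT5G02580, −1.30 ± 0.21 for PKS1 and −1.10 ± 0.19 for AT1G21830. In PKS1 the larger change was the one at 17 °C.

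Against PHYD-YFP/abcde the difference was 2.09 for TZP, 2.11 for SPA1, 1.89 for NUDX19 and 1.56 for BBX24 among genes that rose. It was −3.62 for PIL1, −3.24 for AT5G05965, −1.30 for PHYB and −2.15 for FLP1 among genes that fell. Adjusted p-values ran from 3.99e-14 for TZP to 4.06e-08 for FLP1.

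Against PHYB-CFP, PHYD-YFP/abcde the difference was 1.73 ± 0.42 for AT3G42800 and 2.30 ± 0.58 for AT4G21820. It was −1.25 ± 0.16 for NFXL1, −1.78 ± 0.24 for GSTF8, −3.95 ± 0.55 for ATHSP22.0 and −3.97 ± 0.56 for AT1G59860.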

How the results depend on the processing

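The count of 488 DEGs was 1151 without the fold threshold and 397 to 525 in the other alternatives, and ran from 398 (without dark replicate 2) to 503 (without 1 h R replicate 2) when a library was left out. The 24 h against 1 h count of 2355 was 6184 without the fold threshold and 1899 to 2439 with a library left out. The difference from aBcde gave 4 genes by DESeq2 and 0 to 1 with a library left out, the 1 being MO1 without aBcde 1 h R replicate 3 (−1.04, adjusted p = 0.0181, against −0.84 and 0.553 with all libraries). The 17 °C difference of 55 genes became 86 by DESeq2, 32 with only the libraries compared and 38 to 78 with a library left out, that from PHYB-CFP, PHYD-YFP/abcde 124 instead of 67 with only the libraries compared and 46 to 66, and that from PHYD-YFP/abcde (150) 115 to 162. The cause of these shifts was not tested. The dark PHYB difference was 2.99 to 3.09 from aBcde and 3.56 to 3.65 from PHYD-YFP/abcde with a library left out.

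Replicate numbers did not pair the samples: correlations of same-numbered 1 h R and dark deviations were 0.00312, 0.0608 and 0.0537, and 2 of 3 irradiated libraries correlated best with their own number. With the replicate block, the counts were 445 for the response, 2261 for 24 h against 1 h, and 0, 53, 137 and 70 for the differences from aBcde, 17 °C, PHYD-YFP/abcde and PHYB-CFP, PHYD-YFP/abcde.

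With 50 bases after the start added, the share of all windows was 8.87% with a G-box and 13% with a PBE. With 1000 bases before the start, chosen after seeing the data, it was 16% and 38.3%, against 22.9% and 42.7% of genes that rose and 33.9% and 48.5% of genes that fell. A longer window holds more letters.

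Of 80 named genes, 67 kept direction and call in every alternative run. The others, PHYD, UNE10, BEE3, IAA20, HY5, BBX20, LHCB3, CAO, SIG1, GNC, CHS, GA20OX1 and GA2OX1, lost the call in 75 of 1113 values over all named genes, and 0 reversed. Low dark counts limit GA2OX1, BBX30, BBX31, BBX32 and also PHR1, named below, and 3 libraries a group limit every p.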

Other observations

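The genes in this part were chosen after their values were seen, and adjusted p-values come from the edgeR fit over all genes. DDB2, for a protein that recognizes DNA damaged by ultraviolet light, had 73.1, 66.4 and 35.3 CPM after 1 h R, against 15.2, 16.3 and 14.3 CPM in darkness (log2 fold change 1.93 ± 0.21, adjusted p = 1.20e-10). The photolyase gene PHR1 (AT1G12370) had 1.13, 0.718 and 0.776 CPM, against 0.103, 0.0534 and 0.0504 CPM (adjusted p = 0.00262). Its dark values lay under the CPM that 5 counts stand for (0.257, 0.267 and 0.252 CPM). UVR3, the other photolyase gene, changed by −0.41 and did not pass the test.

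Nitrate reductase gene NIA2 had 271, 299.6 and 103.5 CPM after 1 h R, against 95.6, 88.1 and 91.7 CPM in darkness (1.29 ± 0.24, adjusted p = 5.73e-05), and BT2, a BTB-TAZ scaffold gene, 487, 588 and 351 CPM, against 1118, 1272 and 1200 CPM (−1.33 ± 0.17, adjusted p = 2.17e-08). BT1, its relative, had 44.6, 46.1 and 39.1 CPM, against 80.8, 116 and 96.2 CPM (−1.17), and stood at 649.9, 680.4 and 553 CPM after 24 h R. VTC2, of ascorbate synthesis, had 338.5, 346 and 186 CPM, against 97.3, 114 and 100.5 CPM (1.48 ± 0.21, adjusted p = 2.82e-07). Glutathione transferase gene GSTU19 had 307, 263 and 187 CPM, against 91.4, 77.2 and 76.9 CPM (1.62 ± 0.21). AUX1, an auxin influx carrier gene, had 150, 149 and 153 CPM, against 315, 318 and 320 CPM (−1.08 ± 0.13, adjusted p = 1.45e-09), and GATA2, a regulator of photomorphogenesis, 29.7, 27.2 and 15.7 CPM, against 68.8, 79.3 and 74.8 CPM (−1.62 ± 0.19, adjusted p = 1.09e-09). The groups of DDB2, PHR1, NIA2, BT2, BT1, VTC2, GSTU19, AUX1 and GATA2 did not overlap.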
